A study of Mus musculus with 12 samples.

Results

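The myogenic transcription factors described here are the 9 genes Myod1, Myog, Myf5, Myf6, Mef2a, Mef2c, Mef2d, Six4 and Pax7, chosen by name. Their values were sought in 3 deposited tables from RNA-seq of C2C12 cells, an established mouse myoblast line that fuses into myotubes when serum is withdrawn. Each table lists only the genes that the authors called different between a pair of groups at a false discovery rate of at most 0.05. The tables list 10289 genes in all, and 7 of the 9 factors are among them. Of the listed genes 9266 are protein-coding, beside 21951 protein-coding genes in the mouse annotation GENCODE M21.

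The cells were stable C2C12 lines made with lentivirus and selected with puromycin. They overexpressed GFP (the negative control), METTL3 or METTL14 from mouse cDNA behind a CMV promoter. METTL3 and METTL14 form the methyltransferase that writes N6-methyladenosine (m6A) into mRNA. The 8 RNA-seq libraries make up 4 groups of 2: GFP, METTL3 and METTL14 cells labelled D0, in growth medium (GM) with fetal bovine serum, and GFP cells labelled D4, taken 4 days after near-confluent cultures were moved to differentiation medium with horse serum. The METTL14 libraries carry D0 in their titles and D4 in another label. The title was followed, and the paper also describes the METTL14 cells of its RNA-seq comparison as in GM. The labels do not say whether the 2 libraries of a group came from separate cultures. The 4 MeRIP-seq libraries, an input and an immunoprecipitate of GFP cells at D0 and at D4, were not analysed here.

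The MyoD family (Myod1, Myog, Myf5 and Myf6) are basic helix-loop-helix factors that bind E boxes as dimers with E proteins. Myf5 and Myod1 commit cells to the muscle lineage, Myog drives terminal differentiation, and Myf6 acts in differentiation and in mature fibres. MEF2 factors are MADS-box proteins that act with the MyoD family on muscle genes, while Six4 and Pax7 act upstream in the lineage, Pax7 being the factor known for muscle stem cells.

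The value available for each gene is the authors' mean normalized count, the count after scaling for library size, averaged by the authors over libraries. It is 1 pooled number per gene, with no error, no number of replicates and no value for any library, and no depth per library is in the tables. For each of the 3034 pairs of rows that 2 tables share, the means differed by a relative amount of at most 4.77e-10, so a gene has the same mean whichever comparison lists it. The mean therefore gives a gene's level over all conditions together, and a listing gives only that a difference passed the authors' limit. If the mean runs over the 8 RNA-seq libraries, 6 of them carry D0 in their titles. Growth medium then weighs more in it than D4. No direction or size of a change is given below. A gene that a table does not list has no value there, which is not a level of 0 and not an absence of change.

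The sequences that set these relatives apart in a read-based measurement are shown first. In the MyoD family the longest stretch of identical amino acids shared by the 4 proteins is 13 residues, in the helix-loop-helix region. The coding bases of that stretch, from GENCODE M21 on GRCm38, are printed 5′ to 3′ on the gene's own strand, with capitals for the positions at which the 4 genes are not all alike.
Myod1: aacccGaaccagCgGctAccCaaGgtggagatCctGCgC
Myog: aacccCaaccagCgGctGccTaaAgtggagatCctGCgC
Myf5: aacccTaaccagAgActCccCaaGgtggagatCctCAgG
Myf6: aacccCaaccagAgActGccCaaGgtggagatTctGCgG
Of these 39 bases, 29 are the same in the 4 genes and 10 are not. The stretch lies in the first coding exon of each gene: at chr7:46377087-46377125 on the plus strand for Myod1, chr1:134290386-134290424 on the plus strand for Myog, chr10:107485557-107485595 on the minus strand for Myf5 and chr10:107494300-107494338 on the minus strand for Myf6.

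The MEF2 stretch is longer. Mef2a, Mef2c and Mef2d share 37 residues without a difference, positions 13 to 49 of each protein, within the MADS-box region that binds DNA. Capitals again mark the positions at which the genes are not all alike.
Mef2a: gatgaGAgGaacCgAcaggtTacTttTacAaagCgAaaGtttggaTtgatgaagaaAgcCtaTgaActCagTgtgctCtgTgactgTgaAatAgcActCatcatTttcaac
Mef2c: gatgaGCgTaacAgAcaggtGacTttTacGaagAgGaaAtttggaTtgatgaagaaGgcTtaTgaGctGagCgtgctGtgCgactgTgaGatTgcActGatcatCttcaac
Mef2d: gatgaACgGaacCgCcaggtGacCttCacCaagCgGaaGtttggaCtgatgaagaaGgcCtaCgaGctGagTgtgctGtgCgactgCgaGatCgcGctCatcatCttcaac
Of the 111 bases, 84 are the same in the 3 genes and 27 are not. Each stretch runs over an exon boundary, so the genome interval includes an intron: chr7:67295486-67316809 on the minus strand for Mef2a (exons 3 and 4), chr13:83575713-83592870 on the plus strand for Mef2c (exons 3 and 4 of transcript ENSMUST00000163888) and chr3:88155845-88156414 on the plus strand for Mef2d (exons 2 and 3).

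Over whole proteins, identity was counted over all columns of a global alignment of the translated coding sequences. In the MyoD family it ran from 29.9% for Myod1 with Myf6 to 43.7% for Myod1 with Myf5, the pair of lineage-commitment factors, followed by 43.4% for Myog with Myf6. In the MEF2 family it was 56.3% for Mef2a with Mef2c, 53.6% for Mef2a with Mef2d and 48.2% for Mef2c with Mef2d. Between transcripts of the same family, the longest run of identical bases was 26 bases in the MyoD family (Myod1 with Myf5) and 28 bases in the MEF2 family (Mef2c with Mef2d). These runs, in the longest annotated transcript of each gene, bound how long a read could match both members of a pair without a mismatch.

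Among the MyoD family, Myog had the highest mean normalized count, 2124, and Myod1 followed with 1845. Myf5 had 593, and Myf6 is in none of the tables. Myog is listed only for D4 against GM. Myod1 is listed for METTL3 against GFP and for METTL14 against GFP, and not for D4 against GM. Myf5 is listed for D4 against GM and for METTL3 against GFP. The 3 listed members thus have 3 different sets of listings, and these sets were not tested against each other, since a gene can pass a limit in one comparison and miss it in another without a difference between the comparisons. All 3 comparisons also share the GFP libraries in growth medium as their reference. Listings of a gene in several tables are therefore not independent of each other.

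Myod1 (ENSMUSG00000009471) lies at chr7:46376474-46379099 on the plus strand, and Myog (ENSMUSG00000026459) at chr1:134289989-134292548 on the plus strand. Myf5 (ENSMUSG00000000435) lies at chr10:107482908-107486134 and Myf6 (ENSMUSG00000035923) at chr10:107492853-107494737, both on the minus strand, with 6718 bases between them. Each of these 4 genes is short, has 3 exons and has 1 annotated transcript. No exon of theirs overlaps an exon of another annotated gene. Myf5 and Myf6 are thus neighbours on the same chromosome, with Myf5 in 2 tables and Myf6 in none.

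Among the MEF2 factors, Mef2a had the highest mean normalized count of all the members, 3962. Mef2d had 2933 and Mef2c had 288. All 3 are listed for D4 against GM. Mef2c is in addition listed for METTL14 against GFP, and no MEF2 factor is listed for METTL3 against GFP.

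Mef2a (ENSMUSG00000030557, chr7:67231163-67372858, minus strand) has 12 annotated transcripts, Mef2c (ENSMUSG00000005583, chr13:83504034-83667080, plus strand) has 31 and Mef2d (ENSMUSG00000001419, chr3:88142372-88172086, plus strand) has 7. Exons of Mef2a share 302 bases with exons of Lysmd4, a protein-coding gene on the opposite strand with a mean normalized count of 127. Exons of Mef2d share 531 bases, 8.87% of its exon length, with the antisense gene 1700113A16Rik, which is in none of the tables. The sources used here do not say whether reads were counted by strand, so the counts of these overlapping genes are uncertain to that extent.

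Pax7 (ENSMUSG00000028736, chr4:139737062-139833528, minus strand) had a mean normalized count of 21.7, the lowest of the 7 listed members, and it is the only member listed in all 3 tables. Six4 (ENSMUSG00000034460, chr12:73099609-73113456, minus strand), a homeodomain factor upstream of the MyoD family, is in none of them.

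**Figure D1:**
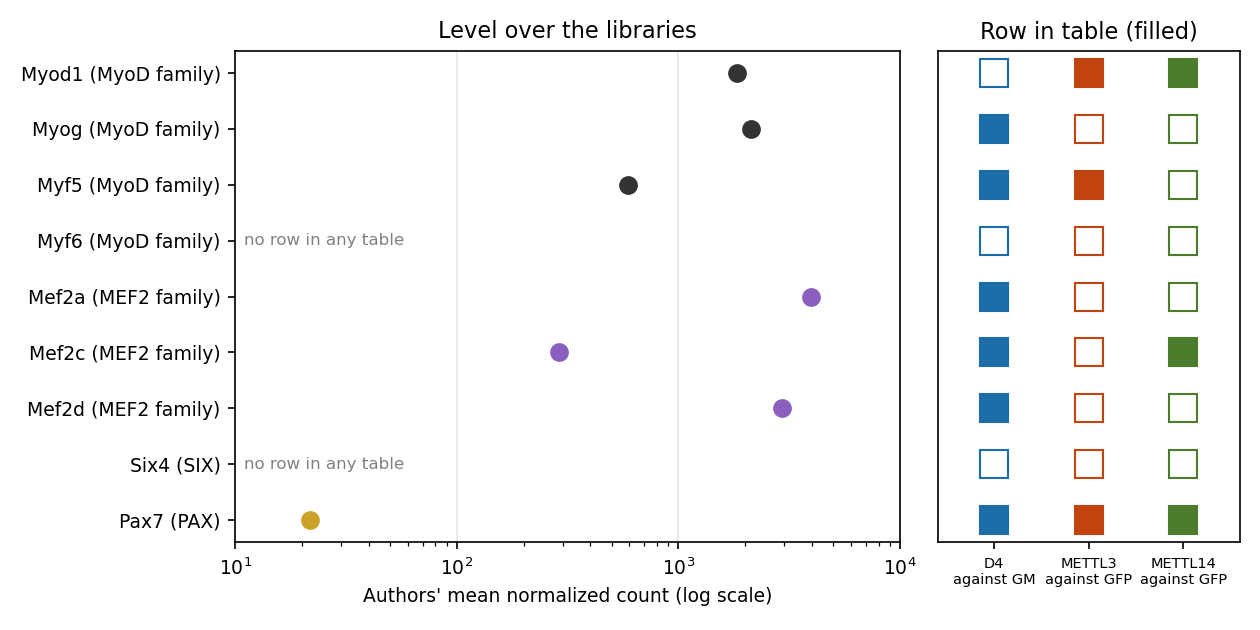
Left, the authors' mean normalized count of each member on a log axis, 1 pooled value per gene without error; right, a filled square for each of the 3 tables that lists the gene. The 7 listed members run from 21.7 (Pax7) to 3962 (Mef2a), and Myf6 and Six4 have no row.

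In all, 6 members are listed for D4 against GM, 3 for METTL3 against GFP and 3 for METTL14 against GFP. For comparison, of the 21951 protein-coding genes in GENCODE M21, 40.1% are listed for D4 against GM, 7.80% for METTL3 against GFP and 4.91% for METTL14 against GFP. These shares are over annotated genes, many of which a muscle line does not transcribe, so they are not shares of genes tested. The members were chosen for their part in myogenesis, and with 9 genes nothing particular to them is read from the counts.

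A pooled mean also limits what any group could have reached. If the mean runs over the 8 RNA-seq libraries in 4 groups of 2, no group's mean can be above 4 times the pooled mean, which is the case in which the other groups hold no read at all. For Pax7 that bound is 86.8 normalized counts, which is under the lower quartile of the pooled means of all genes listed for D4 against GM, 106. For Mef2c the bound is 1151, which is under the pooled means of Mef2a and Mef2d. Either of these could lie below its own pooled mean in a given group. For Myf5 it is 2372, a value above the pooled means of Myod1 and Myog. No order of any members within a given group follows from the pooled means. The tables do not name the libraries behind the mean, and the bounds rest on that condition.

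Read counts grow with transcript length, so the levels of different genes were compared per kilobase of the longest annotated transcript. On this scale Myog was highest, at 1421 normalized counts per kilobase, and Myod1 was next, at 992. Mef2a had 715 per kilobase, Mef2d had 543, Myf5 had 285, Mef2c had 45.9 and Pax7 had 3.71. Mef2a and Mef2d, with their long transcripts, thus stood below Myog and Myod1 per kilobase and above them as counts. Per kilobase, Myog stood 1.43 times above Myod1 and 4.99 times above Myf5. Mef2a stood 15.6 times and Mef2d 11.8 times above Mef2c. No error is known for these ratios, so neighbours in the order, such as Myog and Myod1 or Mef2a and Mef2d, cannot be said to differ.

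The middle of the order depended on which length was used. With the length of all exons together, in which Mef2a is 14681 bases long rather than 5538, Mef2a moved from the third place to the fifth, at 269.9 per kilobase, and stood at 0.551 of the Mef2d level. Mef2d then stood 26.75 times above Mef2c, and Mef2a 14.7 times. With the coding length alone, these ratios to Mef2c were 9.595 for Mef2d and 13.4 for Mef2a, and Mef2a took the second place, at 2647 per kilobase. Myog came first, Mef2c next to last and Pax7 last with each of the 3 lengths.

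**Figure D2:**
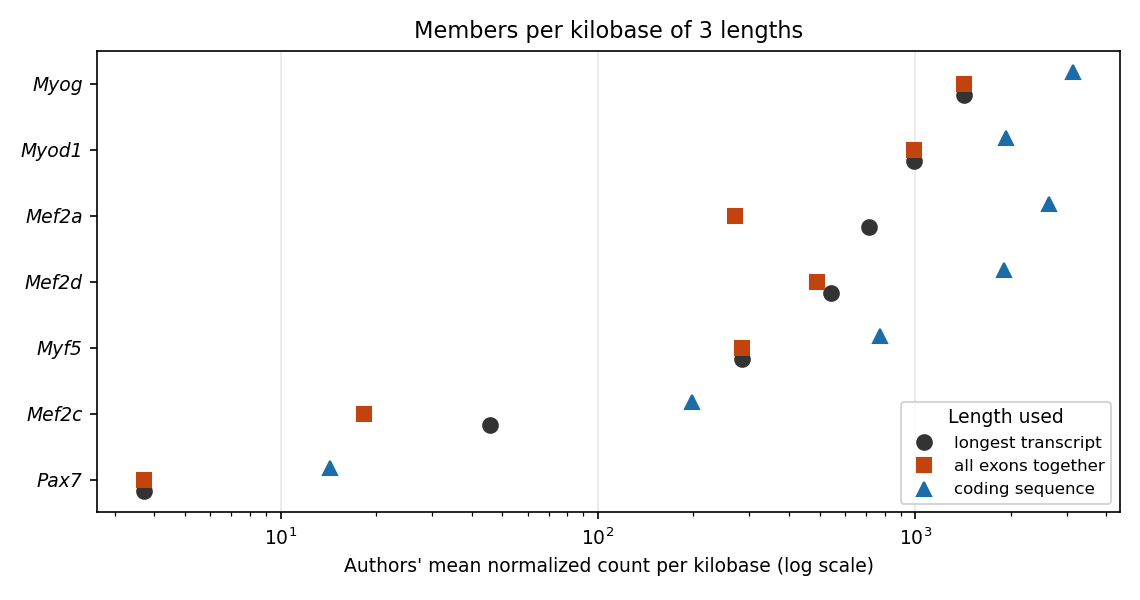
The authors' mean normalized count per kilobase (log axis) of the 7 listed members, with circles for the longest transcript, squares for all exons together and triangles for the coding sequence. Myog is highest and Pax7 lowest with each length, while Mef2a moves between 269.9 and 2647.

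Against the 9823 genes listed for D4 against GM, whose median mean normalized count was 465, the members spread over nearly the whole range. Mef2a was above 94.9% of these genes, Mef2d above 92.0%, Myog above 87.8% and Myod1, which that table does not list, above 85.4%. Myf5 was above 56.7% as a count. Mef2c was above 39.3% and Pax7 above 12.0%. Per kilobase of the longest transcript, Myog was above 95.0% of the listed genes and Myod1 above 92.3%, while Mef2a was above 88.9%, Mef2d above 84.8%, Myf5 above 70.2%, Mef2c above 28.1% and Pax7 above 5.49%.

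**Figure D3:**
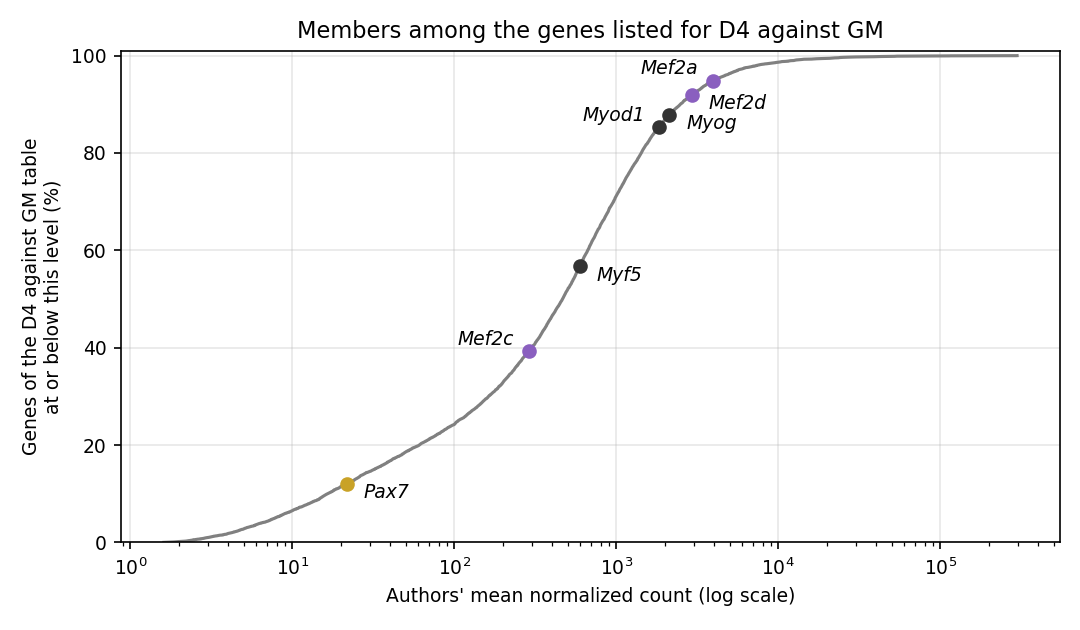
The curve gives the share of the 9823 genes listed for D4 against GM (percent) at or below each mean normalized count (log axis), and the points place the 7 listed members on it. Mef2a, Mef2d, Myog and Myod1 lie above 85% of the genes, Myf5 lies at 56.7%, Mef2c at 39.3% and Pax7 at 12.0%.

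The partners, inhibitors and targets of these factors were read in the same way from lists of 34 further genes, of which 26 are in at least 1 table. For D4 against GM 23 of the 34 are listed, for METTL3 against GFP 10 and for METTL14 against GFP 11. Of annotated protein-coding genes, 40.1%, 7.80% and 4.91% are listed in these comparisons, in the same order. In at least 1 table, 9266 protein-coding genes are listed, beside 21951 annotated. Those figures also stand beside the counts of each list below. The lists were chosen for known roles, so nothing particular to them is read from the counts. Among the E proteins, which pair with the MyoD family on DNA, Tcf4 had a mean normalized count of 2525 and Tcf3 had 1898, while Tcf12 is in no table. Tcf3 is listed in all 3 tables, and Tcf4 for D4 against GM and METTL3 against GFP. Tcf3 lies between Myod1 and Myog in mean normalized count, and Tcf4 lies above Myog.

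Of the 11 inhibitors of MyoD or MEF2 factors, 9 are listed somewhere and 7 for D4 against GM. Their mean normalized counts ran from 9.13 for Msc, a helix-loop-helix repressor, to 1721 for Hdac7, a class IIa histone deacetylase that binds MEF2 proteins. Msc is listed only for METTL14 against GFP. Hdac7 is listed for METTL3 and for METTL14 against GFP and not for D4 against GM. The ID proteins Id1, Id2 and Id3, which bind E proteins and keep them from DNA, are each listed for D4 against GM and in no other table.

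Of the homeodomain factors related to Six4 and their EYA coactivators, 4 genes are listed, from Six5 with 173 to Eya4 with 1687. Of the PAX factors Pax3 is in no table, which leaves Pax7 alone. Mef2b, the remaining MEF2 gene, is in no table either.

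All 11 targets of the MyoD and MEF2 factors are listed for D4 against GM, 5 of them also for METTL3 against GFP and 5 for METTL14 against GFP. Their means ran from 641 for Smyd1, a histone methyltransferase of muscle, to 53546 for Acta1, the skeletal muscle actin, with a median of 7568. Per kilobase the median target stood at 4278, above Myog, the highest of the members on that scale. With this many targets listed, the list describes a part of the muscle program chosen for its known place in it and is no test of the factors.

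**Figure D4:**
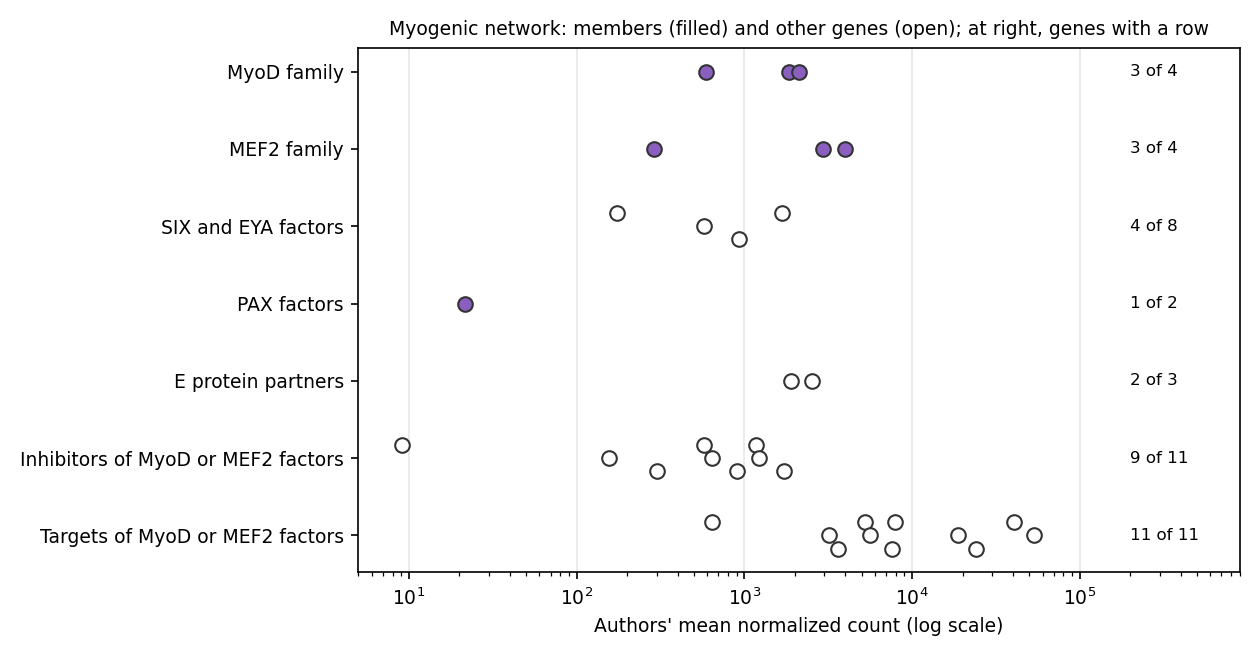
Each point is the authors' mean normalized count (log axis) of 1 gene of the myogenic network, filled for the members and open for other genes, in rows by role; the figures at the right give how many genes of a list are in any table. The 11 targets reach 53546, while the 6 listed members of the MyoD and MEF2 families lie between 288 and 3962.

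Marker lists of cell types were read in the same way. Des, Cdh15, Myh3, Acta1 and Ckm are also among the targets above, so these lists are not separate from that one. All 4 myoblast markers and all 4 myotube markers are listed, the myoblast markers with means from 5221 to 26440 and the myotube markers with means from 3187 to 53546. None of 3 endothelial, 3 blood or 3 adipocyte markers is in any table, which sets no upper limit on their level, since a gene without a called difference is not listed. The 3 cardiac muscle markers are listed for D4 against GM, with means of 428 for Myh6, 35.3 for Nkx2-5 and 10.97 for Tnni3. The overexpressed genes are each listed in the comparison named for them: Mettl3, with a mean of 5827, for METTL3 against GFP, and Mettl14, with a mean of 6250, for METTL14 against GFP and for D4 against GM. Reads from the overexpressed mouse cDNAs can count toward these 2 pooled means. They are therefore not read as the level of the cells' own genes.

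Because the overexpressed enzymes write m6A, the members' transcripts were searched on the sense strand for its consensus DRACH, in which D is any base but C, R is A or G and H is any base but G. A match is only a possible site. Over 21951 protein-coding genes the median density in the longest transcript was 20.3 matches per kilobase, and 3 of the 9 members were above it: Mef2a with 22.6, Myf6 with 21.4 and Pax7 with 21.01. Mef2d was lowest, with 14.6 per kilobase, a density above that of 6.48% of genes. Myod1 had 32 matches (17.2 per kilobase), Myog 26 (17.4 per kilobase) and Myf5 36 (17.3 per kilobase). For the narrower form GGACT, which is part of DRACH, 4 of the 9 members were above the median of 1.00 per kilobase: Myog, Mef2c, Mef2d and Pax7. Myod1, listed in both overexpression tables, has no GGACT in its 1861 bases, and Pax7, listed in both as well, has 9 in 5854 bases.

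Promoter windows from RefSeq (GRCm38), 300 bases at a RefSeq transcript start, were found for 7 of the 9 members, with 10 windows between them. The Pax7 window and all but the first Mef2c window lie wholly inside the GENCODE gene spans given above. Myod1 and Myf6 had no entry. The E box CANNTG, which reads the same on both strands in its fixed letters, was present in 3 of the 10 windows, against 72.3% of all 32851 windows. The 3 windows belong to Myog, with 2 matches, and to 2 of the 3 starts of Mef2c. By gene that is 2 of the 7 members. Windows of 1 gene are not independent, and those of Six4 overlap each other, so no depletion is read from these counts. The form CAGCTG, a case of CANNTG, was in none of the 10, against 16.3% of all windows. The MEF2 core motif was searched on both strands as YTAWWWWTAR, in which Y is C or T, W is A or T and R is A or G. It was found in the Mef2a window alone, against 3.19% of all windows. Letters missing from these windows say nothing on binding elsewhere in the genes, or at sites within the windows that depart from these exact patterns.

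Primers for quantitative PCR exist for 4 of the members among the oligos of these experiments, and they are shown because they tell which part of each mRNA such a measurement reads. They are written 5′ to 3′, each as ordered.
Myod1 forward: ctacccaaggtggagatcctg
Myod1 reverse: cactgtagtaggcggtgtcgt
Myog forward: atccagtacattgagcgcctac
Myog reverse: gacgtaagggagtgcagattgt
Mef2a forward: gcaggacgaactcggatatc
Mef2a reverse: gagaagttctgaggtggcaa
Mef2c forward: atcccgatgcagacgattcag
Mef2c reverse: aacagcacacaatctttgcct
All 8 matched coding sequence of the intended gene, and no longest transcript of another gene held an exact match to any of them. The Myod1 pair, at chr7:46377102-46377122 in exon 1 and chr7:46377786-46377806 in exon 2, spans 265 bases of mRNA. The Myog pair, at chr1:134290431-134290452 in exon 1 and chr1:134291707-134291728 in exon 3, spans 233 bases.

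The Myod1 forward primer lies inside the stretch shared by the MyoD family that is printed above, from its base 16 on. Over the 21 bases of this primer, Myf5 and Myf6 each differ from Myod1 at 2 positions and Myog differs at 3. The Mef2 primers depend on the isoform. Both Mef2a primers, at chr7:67295381-67295400 in exon 4 and chr7:67266137-67266156 in exon 6, are found in 7 of the 12 annotated transcripts, with 184 bases spanned. Both Mef2c primers are found in 10 of 31 transcripts, with 110 bases spanned. In transcript ENSMUST00000197146, whose exons are numbered apart from those of the transcript used for the shared stretch above, the forward one lies at chr13:83625305-83625325 in exon 4, and the reverse one runs over the junction of exons 4 and 5, between chr13:83625394 and chr13:83633060. The deposited counts are per gene, so for Mef2a and Mef2c they take in transcripts that these primers do not read.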

How the data were processed

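RNA-seq of C2C12 cells in 4 groups of 2 libraries was used. Alignment by the authors was done with hisat2 on GRCm38, gene counts were made with featureCounts and Ensembl annotation version 102, and DESeq2 gave the comparisons. Tool versions are not given in the sources used here. What the deposited tables give per gene is a signal, namely counts that the authors scaled by size factors and averaged across libraries. The tables also hold the authors' log2 fold changes, standard errors, Wald statistics, p-values and adjusted p-values, which were not used, nor was an unheaded value beside 1 gene in 2 tables. Since no column holds values of a library, no test was run, and 0 further per-sample columns were left out.

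Genes were matched by name and identifier to GENCODE M21 (GRCm38), in which 10282 of the 10289 identifiers were found. Transcript lengths, coding sequences, exon overlaps and motif counts came from that annotation. Proteins were translated from the longest complete coding sequence and aligned globally (BLOSUM62, Biopython 1.88). Promoter windows were RefSeq's. Python 3.11.15 with pandas 2.3.3 was used. Counting and motif steps were tested on simulated data. All members, Mettl3, Mettl14, and genes of the other lists with a row could be named. The members and lists were chosen with earlier results of these data known.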

Additional observations from a re-analysis of the deposited data

How the results depend on the processing

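The depth per library is unknown and each value is 1 pooled mean, so leaving out a library, another normalization or an error could not be computed. No paired analysis was possible because the tables hold no value per library. The median member was above 85.4% of the genes listed for D4 against GM. That share was 83.8% over protein-coding genes, 84.3% over genes at 10 or more normalized counts, 85.6% over the genes of all tables and 84.8% per kilobase. The median member was Myod1 as a count and Mef2d per kilobase, where Myod1 itself was above 92.3%. Shares of the lowest members shifted more than the median. Over protein-coding genes Myf5 was above 52.2% (from 56.7%), Mef2c above 33.1% (from 39.3%) and Pax7 above 7.43% (from 12.0%). With the length of all exons together 4 of the 7 members kept their place in the order per kilobase, and with the coding length 5 did. E boxes were in 3 promoter windows as CANNTG and in 0 as CAGCTG. The coding length came from GENCODE in place of RefSeq proteins. All 23 other network genes listed for D4 against GM are protein-coding.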
